A study of Oryctolagus cuniculus with 15 samples.

Results

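Heat shock proteins and DNAJ co-chaperones were followed in rabbit corneal keratocytes, the quiescent cells of the corneal stroma, by bulk RNA-seq. Members were chosen by gene symbol alone: every HSPA, HSPB, HSP90 and DNAJA, DNAJB or DNAJC gene that carries a family number, with HSPD1, HSPE1, HSPH1 and CRYAB. The rule gave 70 of the 23428 genes in the table. They were 11 genes of the HSP70 family, 3 of the HSP90 family, 1 HSP110, 2 mitochondrial chaperonin genes, 9 small heat shock proteins, and 4 DNAJA, 12 DNAJB and 28 DNAJC co-chaperones.

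First-passage primary keratocytes from normal rabbits (Oryctolagus cuniculus) were kept in serum-free medium for 6 days in 5 conditions, with 3 libraries each. In 2DC, cells grew on a collagen-coated dish and were incubated with digestion medium before lysis. In 2DC_L, cells on the same coating were lysed directly in the dish. In 2DF, cells lay on top of a fibrillar collagen matrix, and in 3DF and 3DF_50 they were embedded in one, at 100000 and 50000 cells per matrix. All fibrillar matrices were lifted and digested and the cells pelleted before lysis, so 2DC shares the digestion step with them and 2DC_L does not. Each library pooled the dishes or matrices of 1 experiment, and the 3 libraries of a condition came from separate experiments.

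Heat shock proteins are molecular chaperones: they bind unfolded stretches of other proteins and keep them from aggregating. HSP70 proteins work in cycles of ATP hydrolysis, DNAJ proteins deliver the clients and start the hydrolysis, and HSP110 and other exchange factors reset the cycle, while HSP90 acts later on nearly folded clients and small heat shock proteins hold unfolded ones without ATP. Separate sets serve the cytosol, the endoplasmic reticulum (ER), where secreted proteins such as collagens and proteoglycans fold, and the mitochondrion.

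Library totals ran from 14626982 to 31804255 counts, and the 70 members took 0.473% to 0.654% of them. The keratocyte label was borne out by its markers: KERA, the corneal proteoglycan keratocan, lay between 1507 and 4555 FPKM (fragments per kilobase of gene length, scaled by the authors to library sizes that follow the composition factors of the libraries rather than their count totals) in all 15 libraries. Summed corneal epithelial markers were at 7.82 to 12.8 FPKM in 3DF against 0.162 to 1.21 FPKM in 2DC, 0.226 to 1.11 FPKM in 2DC_L, 0.767 to 6.29 FPKM in 2DF and 0.0786 to 5.97 FPKM in 3DF_50. Of the corneal endothelial markers, SLC4A11 and CDH2 stayed at or below 1.28 FPKM, while COL8A2, a collagen gene, averaged 304 FPKM with 2DC, 341 FPKM with 2DC_L and 372 FPKM with 2DF, against 123 FPKM with 3DF and 74.7 FPKM with 3DF_50. Summed myofibroblast markers were at 1.38 to 9.96 FPKM in the 2D conditions against 0.256 to 0.754 FPKM in the embedded ones. The part of these markers in the results below was not tested. The immediate early genes FOS, FOSB, JUN, EGR1, ATF3, IER2 and DUSP1 summed to 67.1 to 76.4 FPKM in 2DC_L and to 1470 FPKM or more in every digested library. Library 3DF replicate 1 stood apart: it gave the highest or the lowest of the 15 values for 28 of 59 tested members and for 39.8% of all genes tested. Without it, 19 of the 20 member values called in a comparison of 3DF, at any fold, still had an adjusted p of at most 0.05, the exception being HSPA12A in 3DF vs. 2DF. In bulk RNA, fewer cells of a type and less RNA per cell cannot be told apart.

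Levels differed widely between members. Of the 70, 7 had a mean above 100 FPKM, 56 a mean of at least 1 FPKM, and 2 (DNAJC5G and DNAJB8) had no count in any library. HSPB1, the actin-binding small heat shock protein also called HSP27, was the most abundant at 422 FPKM on average (lowest 367, highest 570). It was followed by HSPA8, the constitutive cytosolic HSP70 (253 FPKM), both cytosolic HSP90 genes HSP90AB1 (242 FPKM) and HSP90AA1 (191 FPKM), and the ER HSP90, HSP90B1 (216 FPKM). These 5 genes made up 50.4% to 55.8% of the summed FPKM of all members in every library. Next came HSPA5, the ER HSP70 known as BiP, at 173 FPKM and CRYAB, the small heat shock protein alpha B crystallin, at 113 FPKM.

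**Figure D1:**
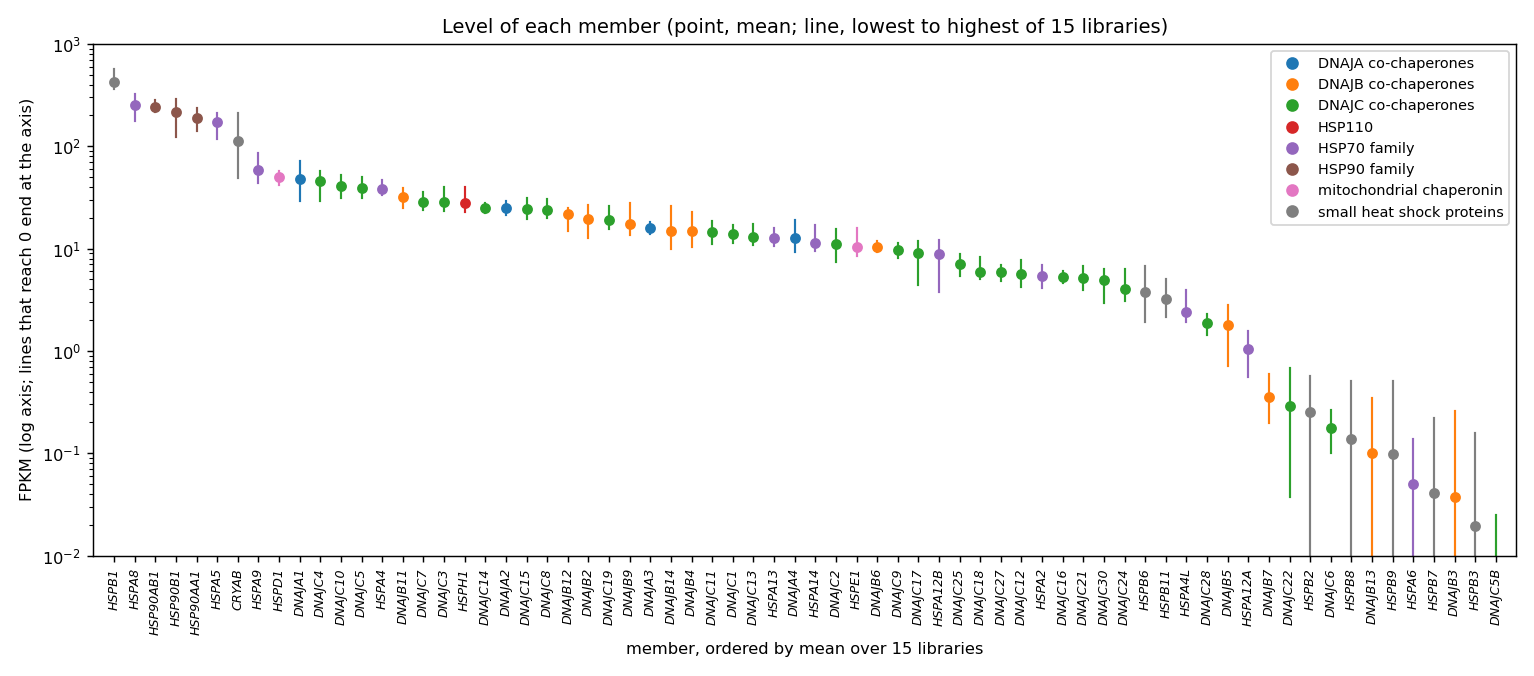
Level of each member with a count, in FPKM on a log axis, ordered by its mean. Points are means over 15 libraries and lines run from the lowest to the highest library. The level falls from 422 FPKM for HSPB1 to under 1 FPKM for the 12 genes from DNAJB7 to the right.

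The genes that heat induces most are HSPA1A and HSPA1B with their partner DNAJB1, and none of these symbols is in the table. Of genes without a symbol, 14 were described there as a copy or relative of a member of these families. They were left out of every count of members because the rule works by symbol. Of 12 tested by edgeR in 3DF_50 vs. 2DC, 4 rose at an adjusted p of at most 0.05 (17.8% of all genes) and none fell. A log2 fold change of at least 1 was reached by 3 of these, and 574 of all 13402 genes tested rose by that much. Against 2DC_L, 6 rose in 3DF_50, 3 of them by that much, and none fell. Of all 13321 genes tested there, 2774 rose, 673 of them by that much, and 2939 fell. Their median in 3DF_50 vs. 2DC was 0.41, and 0.76 when scaled to total counts alone. The one described as HSPA1B with the highest level, LOC100354435 on chromosome 12, stood at 8.70, 8.20 and 6.43 FPKM in 2DC, 7.61, 7.97 and 5.85 in 2DC_L, 8.84, 12.0 and 7.06 in 2DF, 9.08, 11.9 and 16.0 in 3DF and 16.7, 13.0 and 15.1 in 3DF_50. All 3 libraries of 3DF_50 lay above all 9 libraries of the 2D conditions. In edgeR's test over the 5 conditions its adjusted p was 0.00231. LOC100353783 and LOC100354037, also described as HSPA1B and lower in level, had 0.0167 and 0.0535. LOC100345293, described as DNAJB1, was highest in 2DF at 9.50 to 10.5 FPKM and ran from 3.19 to 5.98 FPKM on coated dishes, while 3DF gave 0.900, 8.72 and 6.42 FPKM with the low value in replicate 1. LOC100356572, at 21.9 to 44.2 FPKM, is described as HSPA8. Copies of a gene may share reads, which was not tested, so their separate values are uncertain.

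Of the 70 members, 11 were too low to be tested: HSPA6, HSPB2, HSPB3, HSPB7, HSPB8, HSPB9, DNAJB3, DNAJB8, DNAJB13, DNAJC5B and DNAJC5G. None of them exceeded 24 counts in any library. HSPA6, in other mammals a strictly stress-inducible HSP70, had at most 7 counts. HSPB8, a small heat shock protein that works with BAG3, had 24, 11 and 8 counts in 3DF against 0 to 4 in the 6 libraries of coated dishes, 0, 8 and 4 in 2DF and 2, 0 and 14 in 3DF_50, which overlap 3DF.

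Over all 5 conditions together, 24 of 59 tested members (40.7%) had an adjusted p of at most 0.05 in edgeR's quasi-likelihood test with Benjamini-Hochberg adjustment, against 41.8% of all 14036 genes tested, so the share was near that of genes at large. The 10 smallest p-values belonged to CRYAB, HSP90B1, DNAJB2, HSPA5, DNAJA1, DNAJC5, HSPA8, DNAJB11, HSPA9 and DNAJC2. Most steps were small, among members and among genes of like level. The ratio of the highest to the lowest condition mean was under 1.5 for 67.9% of tested members with a mean of at least 1 FPKM and for 59.6% of all tested genes at that level. A differentially expressed gene (DEG) was one with an adjusted p of at most 0.05 and an absolute log2 fold change of at least 1, and 4 of 59 members (6.78%) were DEGs in any of the 10 pairs of conditions against 19.2% of all genes. These 4 were CRYAB, HSP90B1, HSPA12B and DNAJB5. The shares of DEGs were not matched for level.

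**Figure D2:**
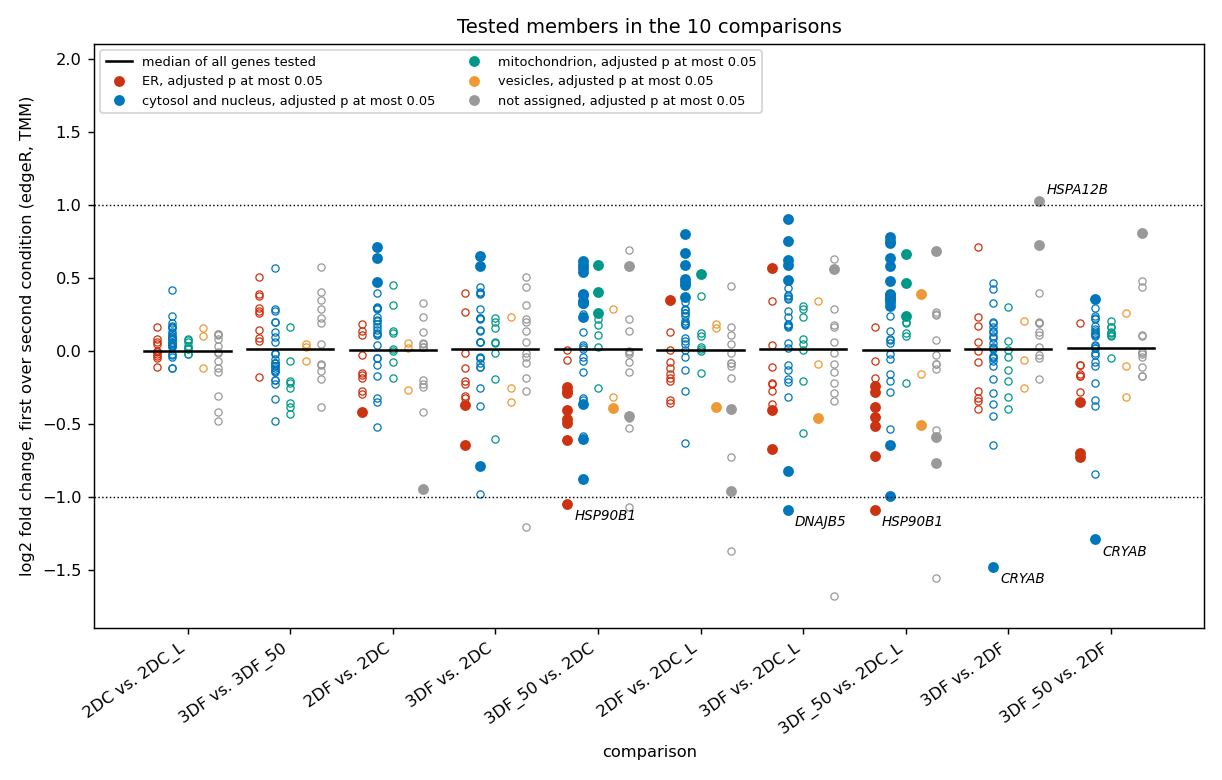
Log2 fold change of every tested member in the 10 comparisons, first condition over second, coloured by the compartment its protein is known for. Filled points have an adjusted p of at most 0.05, dotted lines mark a log2 fold change of 1 and -1, and black lines are the median of all genes tested. DEGs are named, and ER members lie mostly below the black line in 3DF_50 vs. 2DC and 3DF_50 vs. 2DC_L.

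CRYAB, which binds misfolded proteins and cytoskeletal filaments and was first known as a lens protein, varied most among the abundant members. The gene lies on the plus strand of chromosome 1 at 104462698 to 104465651 (build oryCun2). Its level was 107.3, 120.0 and 120.2 FPKM in 2DC, 108.5, 128.3 and 121.5 in 2DC_L, 175.5, 178.6 and 211.3 in 2DF, 49.1, 81.9 and 70.7 in 3DF and 65.2, 75.0 and 87.7 in 3DF_50. All 3 libraries on top of fibrillar collagen were above all others, all 6 embedded libraries were below all others, and both coated-dish conditions overlapped, as did both embedded ones. The mean ± SD was 188 ± 20 FPKM in 2DF and 67.3 ± 17 FPKM in 3DF (n = 3 each).

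By edgeR, CRYAB was a DEG in 3DF vs. 2DF (log2 fold change -1.48, SE 0.19, adjusted p = 0.00199) and in 3DF_50 vs. 2DF (-1.29, SE 0.12, adjusted p = 7.37e-05). Both calls held when any 1 library was left out, and the first was -1.30 without 3DF replicate 1. It passed the adjusted p, but not the fold limit, at 0.71 in 2DF vs. 2DC (SE 0.10), -0.79 in 3DF vs. 2DC (SE 0.18) and -0.61 in 3DF_50 vs. 2DC (SE 0.11). Scaled to total counts alone, without composition factors (on total counts from here on), both embedded values missed it (-0.61, adjusted p = 0.0557, and -0.26, adjusted p = 0.0918), and 3DF vs. 2DC also did without 2DC replicate 2, 2DC replicate 3 or 3DF replicate 3. The opposite directions of 2DF and of 3DF against 2DC are both measured from the same 2DC libraries. Library names carry a prefix that the labels do not explain. Within a shared prefix the log2 ratio of CRYAB was -1.23 for 3DF_50 vs. 2DF, -1.29 for 3DF vs. 2DC and -0.88 for 3DF_50 vs. 2DC, and 3DF and 2DF shared none. With all 5 conditions in 1 fit and the prefix as a block, CRYAB was at -1.40 in 3DF vs. 2DF and at 0.38 in 2DF vs. 2DC, and passed in neither. It was a DEG there, by the limits above, in 3DF vs. 2DC and in 3DF_50 vs. 2DF. No other library shares the prefix of 2DF replicate 2 or 3. In that fit 2DF therefore rests on replicate 1, so neither a pass nor a miss in a comparison of 2DF is decisive there.

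**Figure D3:**
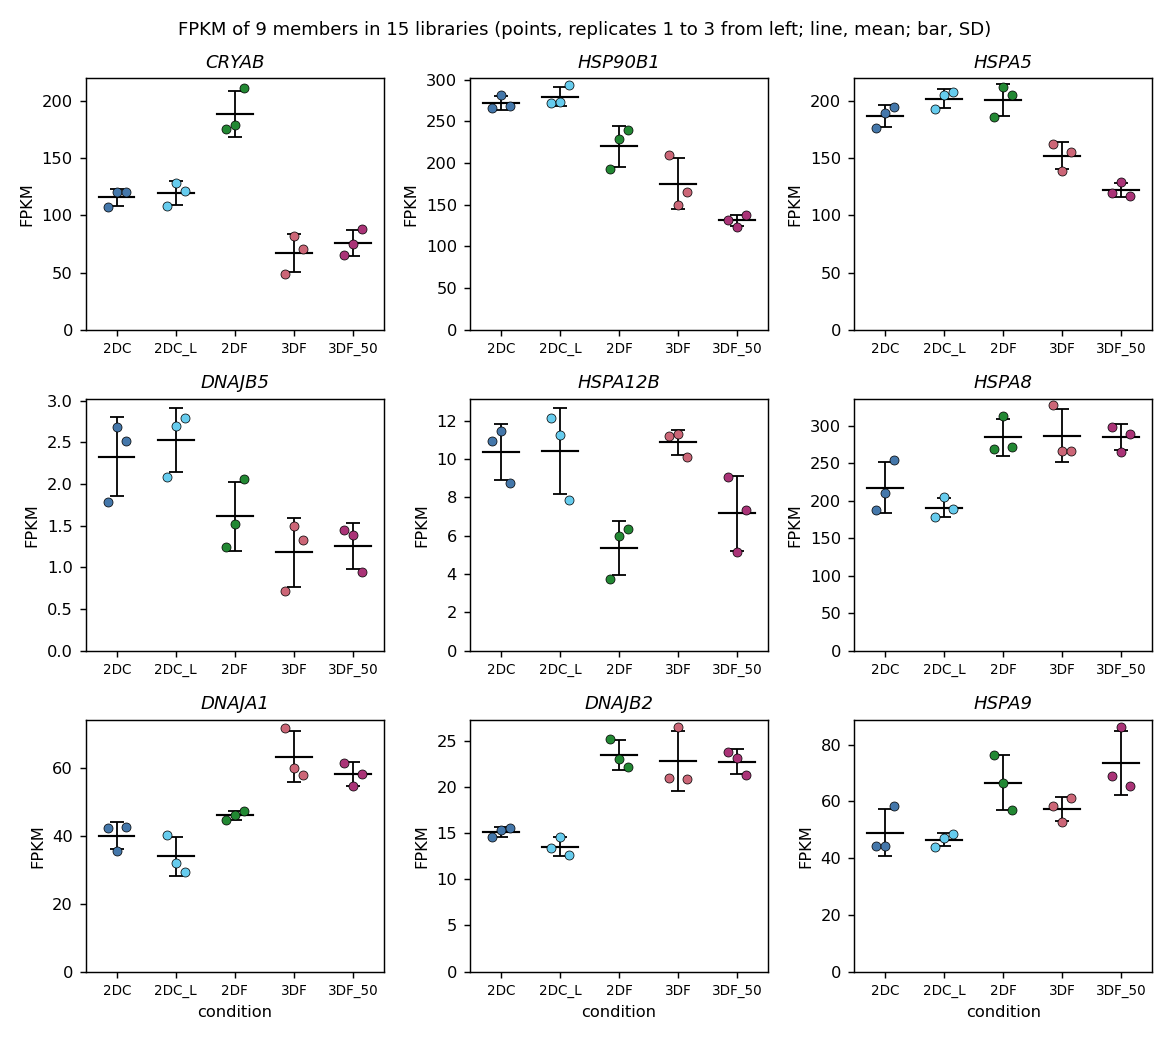
FPKM of 9 members in each library, with replicates 1 to 3 from left to right, a line at the mean and a bar of 1 SD (n = 3 per condition); every axis starts at 0. CRYAB is above 175 FPKM in all 2DF libraries and below 88 FPKM in all embedded ones, and HSP90B1 falls from 272 FPKM on average in 2DC to 131 FPKM in 3DF_50.

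The 2 genes closest to CRYAB in pattern, by Pearson's r of log2(FPKM + 1) over the 15 libraries among 9688 other genes with a symbol and a mean of at least 1 FPKM, were CDO1 (r = 0.96) and AFAP1 (r = 0.95), followed by ENG, KANK1 and PKIG (r = 0.93 to 0.94). CDO1, which breaks down cysteine, averaged 179 FPKM in 2DF and 22.0 FPKM in 3DF. The member most like CRYAB was DNAJB12, at r = 0.73. HSPB2, another small heat shock protein gene, starts 872 bases from CRYAB on the other strand with no annotated gene between them. It had 0 to 15 counts and could not be tested. Among other small heat shock proteins, HSPB1 passed in no pair: its means ran from 383 FPKM in 3DF to 471 FPKM in 2DF with overlapping libraries, and its adjusted p over the 5 conditions was 0.26. HSPB6, known from muscle, lay between 1.93 and 6.82 FPKM and HSPB11, which is built into intraflagellar transport, between 2.15 and 5.04 FPKM, and only HSPB11 passed an adjusted p in a pair (3DF_50 vs. 2DC_L, -0.77, SE 0.27, adjusted p = 0.0394). That call was lost in 4 of 6 fits leaving out a library: without 2DC_L replicate 1 or 3, or 3DF_50 replicate 1 or 3.

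Most members of the ER fell in 3DF_50 vs. 2DC, though not on total counts. HSP90B1, also called GRP94, which folds secreted and membrane proteins such as integrins, lies on chromosome 4 at 83093857 to 83110798. It stood at 266, 282 and 268 FPKM in 2DC, 272, 274 and 293 in 2DC_L, 192, 229 and 239 in 2DF, 209, 150 and 166 in 3DF and 132, 124 and 137 in 3DF_50. Every coated-dish library was above every other library, every 3DF_50 library was below every other one, and 2DF and 3DF overlapped through 3DF replicate 1.

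HSP90B1 was a DEG in 3DF_50 vs. 2DC (log2 fold change -1.05, SE 0.09, adjusted p = 3.73e-05) and in 3DF_50 vs. 2DC_L (-1.09, SE 0.10, adjusted p = 2.08e-05), and both calls held when any 1 library was left out. In 3DF vs. 2DC it reached -0.65 (SE 0.14, adjusted p = 0.0177), and did not pass without 2DC replicate 2 or 3 or 3DF replicate 2 or 3. Within a shared prefix the log2 ratio was -1.09 for 3DF_50 vs. 2DC and -0.36 for 3DF vs. 2DC, the latter resting on 3DF replicate 1. With the prefix block it was -0.94 in 3DF_50 vs. 2DC (adjusted p = 0.00488) and missed the fold limit. Scaled to total counts alone, the values were -0.70 and -0.74 for 3DF_50 against 2DC and 2DC_L and missed the fold limit, while the median of all genes moved up to 0.37 and 0.36.

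HSPA5 gave 177, 190 and 195 FPKM in 2DC, 193, 205 and 208 in 2DC_L, 186, 212 and 205 in 2DF, 162, 139 and 155 in 3DF and 120, 129 and 117 in 3DF_50. In FPKM its libraries formed 3 levels that did not overlap: all 9 libraries of 2D conditions, then 3DF, then 3DF_50. On total counts they overlapped: 3DF replicate 1 had 10361 of 24224540 counts and 2DC replicate 1 had 13214 of 31804255. Its log2 fold change was -0.61 in 3DF_50 vs. 2DC (SE 0.08, adjusted p = 6.61e-04) and -0.70 in 3DF_50 vs. 2DF (SE 0.10, adjusted p = 9.57e-04). For 3DF it passed only against 2DC_L, a call lost in 5 of 6 fits leaving out a library, and not against 2DC, 2DF or 3DF_50. The ER DNAJ proteins followed at lower levels: DNAJB11, a soluble partner of HSPA5, was at -0.40, DNAJC10, which reduces disulfide bonds, at -0.49 and DNAJC1, a membrane partner of HSPA5, at -0.47 in 3DF_50 vs. 2DC, with SE of 0.07 to 0.09 and adjusted p of 0.00787 or less.

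Members were assigned to the ER from general knowledge, and some members were left without a compartment, so the counts here depend on that choice. Among the unassigned, DNAJC14, DNAJC16 and DNAJC18 passed in no pair and DNAJC25 fell in 3DF_50 vs. 2DC. Of the 10 assigned ER members, 8 fell in 3DF_50 vs. 2DC at an adjusted p of at most 0.05 and any fold (20.3% of all genes) and none rose. The median log2 fold change of the 10 was -0.35 against 0.01 over all genes. With any 1 library left out, 5 to 7 fell (15% to 19.4% of all genes), the 5 being without 2DC replicate 2. With the prefix block 3 fell (12.2%). Scaled to total counts, 2 fell and 2 rose, against 10.3% and 47.6% of all genes, and DNAJB14, DNAJC3 and HSPA13 changed sign. The ER median was then 0.00, against an all-gene median of 0.37. The 2 that did not pass were DNAJB9 and DNAJB12. DNAJB9, which marks proteins for degradation and is a known target of the unfolded protein response, was at 0.00 (SE 0.08) in 3DF_50 vs. 2DC. It rose against 2DC_L in 3DF (0.56, SE 0.17), where replicate 1 gave 27.9 FPKM and the other two 18.9 and 18.3. Without that library it was 0.35 and still passed, while it did not pass when any 1 of the 2DC_L libraries was left out. DNAJC3, an ER co-chaperone that also restrains a translation kinase, and HSPA13, a small HSP70 of the ER, fell by 0.29 and 0.28. The first call was lost without 2DC replicate 2 or 3DF_50 replicate 2 or 3, and the second in all such fits but that without 2DC replicate 1. Summed over the 10 genes, ER members gave 633 to 666 FPKM in 2DC, 652 to 705 in 2DC_L, 553 to 635 in 2DF, 454 to 590 in 3DF and 409 to 413 in 3DF_50. The coated-dish and 3DF_50 ranges were far apart in FPKM, and the highest 3DF value was again replicate 1. HSP90B1 and HSPA5, described above, made up most of each sum.

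Other ER folding genes were taken from a list of 21, of which 17 could be tested. In 3DF_50 vs. 2DC, 11 of them fell and 1 rose at an adjusted p of at most 0.05, against 20.3% and 17.8% of all genes, with a median of -0.39. On total counts 6 fell and 5 rose, against 10.3% and 47.6% of all genes, and the median was -0.04. With the prefix block 7 fell and 1 rose, against 12.2% and 7.74%. DEGs among them in at least 1 pair were PDIA4, PDIA6 and TXNDC5, which form disulfide bonds, SDF2L1, a partner of DNAJB11, and DDIT3. PDIA6 gave 268, 282 and 253 FPKM in 2DC and 119, 93.3 and 105 in 3DF_50 (log2 fold change -1.34, SE 0.10, adjusted p = 2.84e-05), and -0.99 on total counts. HYOU1, the ER exchange factor of HSPA5, fell in 3DF_50 vs. 2DC without reaching the fold limit (-0.82, SE 0.08, adjusted p = 1.02e-04). It was a DEG against 2DC_L in 3DF (-1.02, SE 0.14), though not without 2DC_L replicate 2 (-0.97) or 3DF replicate 1 (-0.88), and in 3DF_50, though not without 2DC_L replicate 2 (-0.96) or 3DF_50 replicate 3 (-0.97), and in neither on total counts. Of 11 tested partners of HSP70, 4 rose and 2 fell in 3DF_50 vs. 2DC (17.8% and 20.3% of all genes). On total counts 8 and 2 did (47.6% and 10.3%), and the list median went from 0.17 to 0.52. DDIT3, a transcription factor of the stress arm of the ER response, went the other way. It was 1.04 in 3DF_50 vs. 2DC (0.79 without 3DF_50 replicate 2 and 0.99 without 2DC replicate 1). The rise was larger in 2DF vs. 2DC, at 1.61, and DDIT3 was also at 1.22 in 2DC vs. 2DC_L, where only the digestion step differed.

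**Figure D4:**
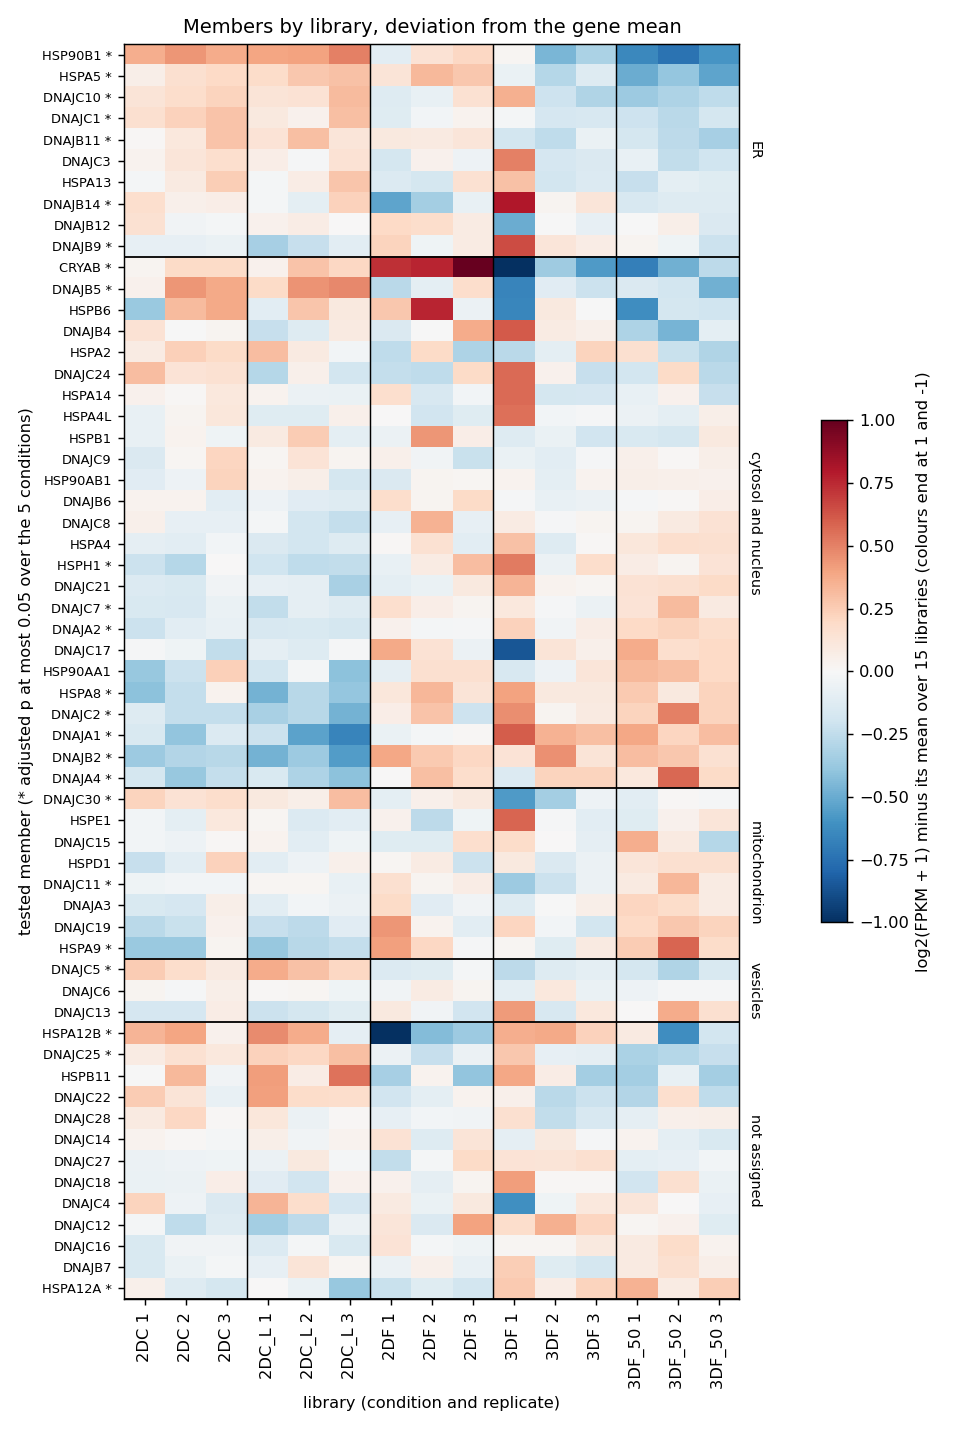
Deviation of each tested member from its own mean over 15 libraries, on the log2(FPKM + 1) scale, with colours ending at 1 and -1. Rows are grouped by the compartment the protein is known for and ordered in each group by 3DF_50 minus 2DC, columns are libraries, and a star marks an adjusted p of at most 0.05 over the 5 conditions. Most ER rows turn from red on coated dishes to blue in 3DF_50, HSPA8 to DNAJA4 turn from blue to red, and 3DF replicate 1 differs from both other 3DF libraries in many rows.

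Several members of the cytosolic HSP70 machinery rose. DNAJA1, a farnesylated partner of HSPA8, gave 42.1, 35.3 and 42.5 FPKM in 2DC, 40.3, 32.1 and 29.3 in 2DC_L, 44.7, 46.1 and 47.2 in 2DF, 71.8, 59.9 and 58.0 in 3DF and 61.5, 54.6 and 58.2 in 3DF_50. All 6 embedded libraries were above all 2DF libraries, which were above all coated-dish libraries. The log2 fold change was 0.65 in 3DF vs. 2DC (SE 0.13, adjusted p = 0.0118), a call lost without 2DC replicate 2, and 0.54 in 3DF_50 vs. 2DC (SE 0.09, adjusted p = 0.00202). Within a shared prefix the log2 ratios were 0.76 and 0.80.

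HSPA8 itself was at 187, 210 and 254 FPKM in 2DC, 179, 205 and 190 in 2DC_L, 269, 313 and 272 in 2DF, 328, 267 and 266 in 3DF and 299, 265 and 290 in 3DF_50. Every fibrillar library was above every coated-dish library, and the 3 fibrillar conditions overlapped. It rose by 0.39 on the log2 scale in 3DF_50 vs. 2DC (SE 0.12, adjusted p = 0.0324) and by 0.58 in both 2DF vs. 2DC_L (SE 0.11) and 3DF_50 vs. 2DC_L (SE 0.10). The first call was lost without 2DC replicate 1 or 2 or 3DF_50 replicate 1 or 3. In 3DF vs. 2DC and 2DF vs. 2DC it did not pass.

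DNAJB2, which passes clients to the proteasome, separated fibrillar from coated conditions most clearly: 14.5, 15.4 and 15.6 FPKM in 2DC and 13.4, 14.6 and 12.6 in 2DC_L, against 20.9 to 26.5 FPKM in all 9 fibrillar libraries. Its log2 fold change against 2DC was 0.64 in 2DF (SE 0.08), 0.58 in 3DF (SE 0.13) and 0.59 in 3DF_50 (SE 0.08), with adjusted p of 0.0019, 0.0187 and 4.41e-04. The 3DF call was lost when any 1 of the 2DC libraries was left out. With the prefix block, where 2DF rests on replicate 1, 2DF vs. 2DC was 0.66 and did not pass. DNAJA2 and DNAJA4, which also serve cytosolic HSP70, DNAJC2, a co-chaperone on the ribosome, DNAJC7, which links HSP70 to HSP90, and HSPA4, an exchange factor of the HSP110 group, rose by 0.34, 0.61, 0.57, 0.32 and 0.23 on the log2 scale in 3DF_50 vs. 2DC. Of these calls, that of DNAJC7 was lost without 2DC replicate 2 and that of HSPA4 in every fit leaving out a library but the one without 2DC replicate 3. HSPH1, the HSP110 exchange factor, passed only against 2DC_L, at 0.33 in 3DF_50 (SE 0.07), at 0.37 in 2DF (SE 0.11), a call lost in 5 of 6 fits leaving out a library (all but that without 2DF replicate 1), and at 0.48 in 3DF (SE 0.15). The 3DF value was 0.31 without 3DF replicate 1, and its call was lost without 3DF replicate 3 or any 1 of the 2DC_L libraries. HSPA2, HSPA14, HSPA4L and DNAJB6, cytosolic members at 5.43, 11.4, 2.38 and 10.3 FPKM on average, passed in no pair, and DNAJB4, at 14.9 FPKM, fell in 3DF_50 vs. 2DC alone (-0.36, SE 0.11, adjusted p = 0.0283), a call lost without 2DC replicate 1 or 2 or 3DF_50 replicate 1 or 2.

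Of 25 tested members of the cytosol and nucleus, 10 rose (17.8% of all genes) and 3 fell (20.3%) in 3DF_50 vs. 2DC. The 3 that fell were CRYAB, DNAJB4 and DNAJB5. Leaving out 1 library gave 5 to 10 rises and 1 to 3 falls, with 1 fall without 2DC replicate 2, and the rises were 6 or fewer without 2DC replicate 1, 2DC replicate 2, 3DF_50 replicate 1 or 3DF_50 replicate 3. In these fits 11% to 16.6% of all genes rose and 15% to 19.4% fell. On total counts 17 rose and none fell, against 47.6% and 10.3% of all genes. With the prefix block 6 rose and 2 fell, against 7.74% and 12.2%. Of the cytosolic HSP90 genes, HSP90AB1 had means from 237 to 250 FPKM, the narrowest of all tested members (ratio 1.06), and HSP90AA1 rose only in 3DF_50 vs. 2DC_L (0.47, SE 0.12, adjusted p = 0.00935). Of 14 tested HSP90 co-chaperones outside the families, 6 rose and none fell in 3DF_50 vs. 2DC (17.8% and 20.3% of all genes), and 11 rose on total counts (47.6% of all genes). Of 4 heat shock factors, the transcription factors that drive heat shock genes, 2 rose there (17.8% of all genes), and 1 or none in 5 of 6 fits leaving out a library (all but that without 3DF_50 replicate 1). Of 8 subunits of the chaperonin TRiC 1 rose (17.8% of all genes), none did in 5 of 6 such fits and 3 did without 2DC replicate 3, while all 8 rose on total counts (47.6% of all genes).

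In the mitochondrion, HSPA9, the import HSP70 also called mortalin, was at 44.1, 44.3 and 58.5 FPKM in 2DC, 43.9, 47.2 and 48.6 in 2DC_L, 76.5, 66.3 and 57.0 in 2DF, 58.3, 52.8 and 61.2 in 3DF and 68.8, 86.4 and 65.5 in 3DF_50. The 2DC libraries overlapped 2DF and 3DF through replicate 3 but lay below 3DF_50. It rose by 0.59 in 3DF_50 vs. 2DC (SE 0.14, adjusted p = 0.0109), together with DNAJC19 of the import motor (0.40) and the HSPA9 partner DNAJA3 (0.26), both of which passed without 2DC replicate 3 but in no other fit leaving out a library. The chaperonin pair passed in no comparison. HSPD1 (HSP60) and its lid HSPE1 (HSP10) start 511 bases apart on opposite strands of chromosome 7, and their adjusted p over the 5 conditions was 0.52 and 0.48. Condition means were 48.1 to 54.8 FPKM for HSPD1 and 9.73 to 11.9 FPKM for HSPE1, whose highest library was 3DF replicate 1 at 16.0 FPKM. A gene described as HSPE1, LOC100356803, was at 18.5 to 45.3 FPKM, so the reads of HSP10 may be split. Of 8 mitochondrial members, 3 rose (17.8% of all genes) and none fell in 3DF_50 vs. 2DC, and 7 rose on total counts (47.6% of all genes). When 1 library was left out 1 to 4 rose (11% to 16.6% of all genes), with 1 in every such fit but the one without 2DC replicate 3.

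The remaining DEGs were low in level. HSPA12B, a distant HSP70 relative described mainly in endothelial cells, was at 10.9, 11.5 and 8.73 FPKM in 2DC, 12.1, 11.3 and 7.89 in 2DC_L, 3.73, 6.01 and 6.35 in 2DF, 11.2, 11.3 and 10.1 in 3DF and 9.05, 5.14 and 7.36 in 3DF_50. All 2DF libraries were below every library of the coated dishes and of 3DF, and overlapped 3DF_50. It was a DEG in 3DF vs. 2DF (1.03, SE 0.20, adjusted p = 0.0146), and missed the fold limit without 2DF replicate 1 (0.82) or without 3DF replicate 2 (0.98). With the prefix block, where 2DF rests on replicate 1, it did not pass. The endothelial markers PECAM1 and VWF summed to 0.0527 to 0.179 FPKM over all libraries, and their part in this was not tested. HSPA12A, its paralog, passed in the same comparison at 0.72 (SE 0.19, adjusted p = 0.0485) from means of 0.797 and 1.31 FPKM, and lost that call when any 1 of the 6 libraries was left out.

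DNAJB5, a cytosolic HSP70 partner, gave 2.08, 2.70 and 2.79 FPKM in 2DC_L and 0.715, 1.5 and 1.33 in 3DF. The conditions did not overlap, and the lowest value was 3DF replicate 1. It was a DEG in 3DF vs. 2DC_L (-1.09, SE 0.31, adjusted p = 0.0309) and lost the call in 5 of 6 fits that left out 1 library: without 3DF replicate 1 it was -0.82, without 3DF replicate 3 -1.19 (adjusted p = 0.0572), and without 2DC_L replicates 1, 2 and 3 it was -1.22, -1.04 and -1.03 (adjusted p = 0.0531, 0.103 and 0.0857). It also lost the call on total counts (-0.92, adjusted p = 0.0514) and with the prefix block (-1.18, adjusted p = 0.0524). DNAJC5, the cysteine string protein of secretory vesicles, fell in small steps: 41.4 to 46.5 FPKM in 2DC, 45.0 to 50.4 in 2DC_L, 35.1 to 38.3 in 2DF, 32.2 to 36.3 in 3DF and 31.3 to 34.8 in 3DF_50. All coated-dish libraries were above all fibrillar ones in FPKM, and the log2 fold change in 3DF_50 vs. 2DC was -0.39 (SE 0.08, adjusted p = 0.00456). This fall was not called on total counts, where the libraries overlapped. There 3DF_50 replicate 1 had 1064 of 14626982 counts and 2DC replicate 2 had 1702 of 23709968. The low members DNAJC22 (1 to 30 counts) and DNAJC6, the clathrin uncoating protein auxilin (13 to 33 counts), passed no test, although the log2 fold change of DNAJC22 reached -1.68 (SE 0.56) in 3DF vs. 2DC_L. DNAJC12 reached 0.56 (SE 0.16, adjusted p = 0.0376) in the same comparison, and did not pass without 2DC_L replicate 1 or 2 or 3DF replicate 2 or 3.

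By comparison, member counts were as follows, all by edgeR. In 3DF vs. 2DC no member of 59 was a DEG (7.56% of all genes), and DESeq2 called 1, HSPB8. An unadjusted p under 0.05 was found for 17, against 3970 of all 13493 genes tested. At any fold 2 rose and 3 fell (15.4% of all genes passed), and on total counts 10 rose and 1 fell, against 14.6% and 5.85% of all genes. Without 3DF replicate 1, 3 rose and 9 fell at any fold, against 10.6% and 11.1% of all genes. Both counts were 0 without 2DC replicate 2 (3.13% and 4.25%). They were 1 and 0 without 2DC replicate 3 (4.48% and 5.65%), and 1 and 2 without 2DC replicate 1 (4.36% and 6.8%). They were 2 and 1 without 3DF replicate 2 (5.47% and 6.7%) or 3 (4.49% and 5.06%). In 2DF vs. 2DC no member of 58 was a DEG (4.96% of all genes), 13 had an unadjusted p under 0.05 (3999 of all 13258 genes tested), and DESeq2 called 0. HSPA12B, at -0.95, became a DEG there without 2DC replicate 3, 2DF replicate 2 or 2DF replicate 3.

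In 3DF vs. 2DF 2 of 58 were DEGs (3.78% of all genes), CRYAB lower and HSPA12B higher. In 3DF_50 vs. 2DF 1 of 58 was (4.45%), CRYAB. In 3DF_50 vs. 2DC 1 of 59 was (11.6%), HSP90B1, and at any fold 14 rose and 13 fell, 27 in all against 38.0% of all genes. These were 6 and 8 without 2DC replicate 2 and 7 and 10 without 3DF_50 replicate 3, and 8 or 9 rose without 2DC replicate 1, 3DF_50 replicate 1 or 3DF_50 replicate 2. On total counts 35 rose and 2 fell, against 47.6% and 10.3% of all genes, and with the prefix block 8 rose and 5 fell (7.74% and 12.2%). In 3DF_50 vs. 2DC_L 1 of 59 was a DEG (13.5%), HSP90B1, and DNAJB5 stood just short of the fold limit. At any fold 17 rose and 12 fell (42.9% of all genes), and on total counts 34 and 3 did, against 48.6% and 11.9% of all genes. In 3DF vs. 2DC_L 1 of 59 was a DEG (10.2%), DNAJB5. In 2DF vs. 2DC_L none of 59 was (7.39%), with 22 at an unadjusted p under 0.05 (4694 of all 13152 genes tested) and none by DESeq2.

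No member was called between the embedded densities or after digestion alone. In 3DF vs. 3DF_50 no member of 58 was a DEG (0.452% of all genes) by edgeR, 8 had an unadjusted p under 0.05 (2660 of all 13285 genes tested) and DESeq2 called none. DNAJC11, a mitochondrial membrane protein, was nearest at -0.43 (SE 0.14, adjusted p = 0.15). In 2DC vs. 2DC_L no member of 59 was a DEG (0.265% of all genes) or passed at any fold (0.367%), and DESeq2 called none. Only DNAJC24 had an unadjusted p under 0.05 (0.41, SE 0.16, adjusted p = 0.839), against 780 of all 13608 genes tested. The median absolute log2 fold change of members there was 0.08, against 0.10 for all genes. In 3DF_50 vs. 2DC it was 0.32 for members and 0.31 for all genes, and in 3DF vs. 2DC 0.22 and 0.27. For all genes with a mean of at least 1 FPKM it was 0.09 in 2DC vs. 2DC_L, 0.28 in 3DF_50 vs. 2DC and 0.24 in 3DF vs. 2DC.

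HSPA8 was compared in the same way as CRYAB. The genes most like it over the 15 libraries were WDR12, LETM2, PPME1, RBMS1 and BTBD1 (r = 0.91 to 0.93), and among members DNAJB2 (r = 0.85) and DNAJA2 (r = 0.83) were most like it and DNAJC5 was most unlike it (r = -0.91).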

How the data were processed

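The deposited table held raw counts per gene, made by the authors from HISAT2 alignments to oryCun2 with featureCounts (no strand setting is given in the sources used here, so overlapping antisense genes cannot be told apart). A second table held FPKM by the authors, whose implied library size was 0.921 to 1.24 times the count total and within a few percent proportional to the TMM factors. Samples were grouped by their labels, and replicate numbers name libraries only. Members and lists were chosen with earlier results of these data known. Each pair of conditions was fitted on its own with edgeR 4.0.16 in R 4.3.3 (TMM scaling, genes kept by filterByExpr at 10 counts, quasi-likelihood test, Benjamini-Hochberg over all genes kept), and all 5 conditions together for the overall test. SE is the log2 fold change divided by the square root of F. Named were all DEG members, a fixed list of canonical members, the 5 highest, the 10 smallest overall p-values, DEG partners and the 5 genes most like CRYAB and HSPA8. Compartments were assigned from general knowledge. DESeq2 1.42.0, other scalings, no filter, no fold limit, blocks and leaving out libraries were tried. The fit was first tested on simulated data. No sequences were used here.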

Additional observations from a re-analysis of the deposited data

How the results depend on the processing

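On total counts the log2 values of DNAJB14, DNAJC3 and HSPA13 in 3DF_50 vs. 2DC turned to 0.10, 0.062 and 0.073, and those of DNAJC3 and HSPA13 in 3DF_50 vs. 2DC_L to 0.11 and 0.076. With the prefix block, where 2DF rests on replicate 1, DNAJA4 turned to -0.13 in 2DF vs. 2DC and to -0.062 in 2DF vs. 2DC_L. No other member value called at any fold changed sign under the alternatives run. Without a fold limit the DEG counts of members became 5 in 3DF vs. 2DC (15.4% of all genes), 27 in 3DF_50 vs. 2DC (38.0%) and 29 in 3DF_50 vs. 2DC_L (42.9%). They became 5 in 2DF vs. 2DC, where 892 of all 13258 genes tested rose and 1011 fell. In 3DF_50 vs. 2DF the count became 6 (631 and 1133 of 13201 genes). It became 12 in 3DF vs. 2DC_L (1518 and 1643 of 13551) and 12 in 2DF vs. 2DC_L (1418 and 1556 of 13152). In 3DF vs. 2DC the count of 0 became 1 with no filter and 1 with DESeq2, and in 3DF vs. 2DC_L 2 and 2. In 3DF_50 vs. 2DC_L it became 2 with DESeq2 size factors in edgeR, 2 with no filter, 2 with DESeq2 and 5 on library size only, and in 3DF_50 vs. 2DF it became 2 on library size only. With all 5 conditions and the library prefix as a block, which leaves few residual degrees of freedom, the counts were 1 in 3DF vs. 2DC, 0 in 3DF vs. 2DF, 2 in 3DF_50 vs. 2DC, 4 in 3DF_50 vs. 2DC_L and 0 in 3DF vs. 2DC_L, and 10 members in place of 24 differed among the 5 conditions. The cause of these shifts was not tested.

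Replicate numbers did not pair the samples throughout: same-numbered deviations correlated at -0.17 to 0.31 and no pair of conditions had every correlation over 0.1. Same-numbered libraries did share a name prefix in replicates 1 and 2 of 2DC and 2DC_L (0.31 and 0.077). They also did in replicate 3 of 3DF_50 and 2DC_L (0.23). With the replicate block, members called were 1 in 3DF vs. 2DC and 2 in 3DF vs. 2DC_L, and 22 differed among the 5 conditions. Leaving out 1 library gave 0 to 1 calls in the comparisons of 3DF and 2DF with 2DC and of 2DF with 2DC_L. It gave 1 to 2 in 3DF vs. 2DF, in 3DF vs. 2DC_L and for 3DF_50 against 2DC or 2DF, 1 to 3 in 3DF_50 vs. 2DC_L, 0 in the remaining pairs and 20 to 25 among the 5 conditions. HSPA12B was gained in 2DF against 2DC or 2DC_L without replicate 3 of either dish condition or 2DF replicate 2 or 3. DNAJC22 was gained in 3DF against 2DC or 2DC_L without 3DF replicate 1, and in 3DF_50 against both without 3DF_50 replicate 2. DNAJB5 was gained in 3DF_50 vs. 2DC without 2DC replicate 1, and in 3DF_50 vs. 2DC_L without 2DC_L replicate 1 or 3DF_50 replicate 1 or 2. HSPB6 was gained in 3DF_50 vs. 2DF without 2DF replicate 3. In 3DF vs. 2DC_L, HSPB8 was gained without 2DC_L replicate 2 or 3 or 3DF replicate 2 or 3, and DNAJA1 without 2DC_L replicate 1. Depth limits what can be said of the 11 untested members, and 3 libraries a condition limit the rest.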
